A study of Mus musculus with 5 samples.

Results

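The Hox genes of the HoxA, HoxB, HoxC and HoxD clusters were examined in cultured mouse neural stem and precursor cells from the subventricular zone (SVZ), the stem cell region along the lateral ventricles of the forebrain. The 39 genes whose symbol is Hoxa, Hoxb, Hoxc or Hoxd followed by a number were taken from the 46078 genes of the deposited tables, and their levels are given as TPM (transcript abundance corrected for gene length, as a share of the RNA of a library). The libraries were poly-A selected and stranded, and were made from cultured C57BL/6 cells (C57BL/6j in the study's methods) labelled as carrying no mutation, from female animals of 5 to 8 weeks (the study's methods describe older adults), grown on PDL-coated plates and given PBS as a sham exposure. RNA was taken 1 h after PBS in 2 libraries (replicates 1 and 2) and 8 h after PBS in 3 libraries (replicates 13, 14 and 15). The cells had been expanded as neurospheres and passaged before plating, so they are selected proliferating cells and not freshly taken tissue. The study counts 1 animal as 1 biological replicate for these cells and used them as a forebrain control for astrocytes with a brainstem or rostral spinal identity. All groups share the PBS exposure, and a group without it was not analysed here.

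The library identifiers fall into 2 number series. Series 1 holds both 1 h libraries and 8 h replicate 14, and series 2 holds 8 h replicates 13 and 15. The labelled sex did not match the RNA in every library. Xist, the RNA of the inactive X chromosome in female cells, was at 165 and 199.7 TPM in 8 h replicates 13 and 15 and at 0.0611 TPM or less in the other libraries. The summed level of 4 Y-linked genes (Ddx3y, Eif2s3y, Kdm5d and Uty) ranged from 138 to 181 TPM in both 1 h libraries and 8 h replicate 14, and was 0.0253 TPM or less in the remaining pair. The sex-linked RNA therefore divides the libraries as the identifier series do, and 8 h replicate 14 stands with the 1 h libraries. Each library had between 13681 and 13967 genes at 1 TPM or above.

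The labelled cell type was checked against its markers. All 10 neural stem and precursor genes of the list had a mean of at least 1 TPM, among them the radial glial fatty acid binding protein gene Fabp7 at 8582 ± 1060 TPM (SD, n = 5), Vim at 2232 ± 227 TPM and the oligodendrocyte lineage and precursor factor gene Olig2 at 536 ± 112 TPM. Of 16 forebrain genes, 10 had a mean of at least 1 TPM. They included Six3, a transcription factor gene of the anterior forebrain, at 33.2 ± 11.6 TPM, Lhx2 at 29.8 ± 10.9 TPM and Emx2 at 26.9 ± 6.48 TPM. Of 11 midbrain and hindbrain genes, 2 had a mean of at least 1 TPM, among them Egr2 at 4.74 ± 0.745 TPM, and 4 were listed at 0 in every library, among them Nkx6-1, Pax2 and Pax5. A mean of 1 TPM was reached by 0 of 5 microglial genes, by 1 of 5 endothelial genes (Kdr, 1.57 ± 0.449 TPM) and by 1 of 8 mesenchymal and mural genes (Acta2, 59.2 ± 44.4 TPM). Of 5 neuronal genes, 4 did so, led by Map2 at 240 ± 93.6 TPM and Tubb3 at 31.7 ± 11.6 TPM. The summed mesenchymal and mural list ranged up to 115 TPM in series 1, where its lowest value was still 76.96 TPM, and was 12.9 and 18.4 TPM in series 2. Nearly all of this sum was Acta2, at 75.8 to 114 TPM in series 1 and at 11.2 and 15.8 TPM in series 2. Every other gene of the list had a mean of 0.624 TPM or less. Col1a1 went the other way, at 0.265 to 0.456 TPM in series 1 and at 0.971 and 1.03 TPM in series 2. The sum therefore describes Acta2 and not the list.

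Hox genes encode homeodomain transcription factors that give cells an address along the head-to-tail axis. They lie in 4 clusters, and their order on the chromosome follows the order of their expression limits in the embryo: genes with low paralogue numbers reach forward into the hindbrain, genes with middle numbers into the cervical and thoracic spinal cord, and genes with the highest numbers stay in the lumbar cord, tail and limb ends. The forebrain and midbrain develop in front of all these limits, and there the clusters are known to be covered by Polycomb group proteins, which hold them silent. In the hindbrain and cord, retinoic acid, Cdx factors and hindbrain segment factors such as Egr2 turn them on, and TALE homeodomain proteins (Pbx, Meis and Pknox) bind DNA together with them.

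The DNA at the start of several members is shown here because CpG-dense start sites are the kind of sequence to which Polycomb complexes are known to bind. The sequences are the 250 bases before the RefSeq start of the gene on GRCm38.p6, read in the direction of transcription, with each CpG in capitals. Hoxb4 and Hoxd4 are members of the paralogue group 4, which the study reads as the mark of brainstem and rostral spinal origin, and both were listed at 0 TPM in every library. Hoxa5 and Hoxd13 were above 0 in 1 library each. The windows are chr11:96318017-96318266 on the plus strand for Hoxb4, chr2:74721728-74721977 on the plus strand for Hoxd4, chr6:52204588-52204837 on the minus strand for Hoxa5 and chr2:74667975-74668224 on the plus strand for Hoxd13. The Hoxd4 window lies inside the gene as the deposited tables draw it (74711929 to 74729160), since they begin that gene further upstream.
Hoxb4: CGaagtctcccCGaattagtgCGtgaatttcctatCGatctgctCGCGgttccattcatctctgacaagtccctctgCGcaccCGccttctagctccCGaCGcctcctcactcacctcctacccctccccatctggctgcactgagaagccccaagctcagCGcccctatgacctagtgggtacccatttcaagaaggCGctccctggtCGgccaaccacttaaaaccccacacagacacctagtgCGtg
Hoxd4: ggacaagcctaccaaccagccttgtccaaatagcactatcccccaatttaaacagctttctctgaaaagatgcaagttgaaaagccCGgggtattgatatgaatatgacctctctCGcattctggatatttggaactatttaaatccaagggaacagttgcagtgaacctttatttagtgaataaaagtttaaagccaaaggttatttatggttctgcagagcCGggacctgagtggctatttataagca
Hoxa5: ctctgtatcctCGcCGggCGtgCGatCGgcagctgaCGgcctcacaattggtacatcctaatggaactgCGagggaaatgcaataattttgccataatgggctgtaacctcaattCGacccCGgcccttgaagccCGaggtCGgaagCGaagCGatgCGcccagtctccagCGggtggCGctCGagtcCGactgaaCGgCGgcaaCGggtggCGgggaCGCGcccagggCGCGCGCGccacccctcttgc
Hoxd13: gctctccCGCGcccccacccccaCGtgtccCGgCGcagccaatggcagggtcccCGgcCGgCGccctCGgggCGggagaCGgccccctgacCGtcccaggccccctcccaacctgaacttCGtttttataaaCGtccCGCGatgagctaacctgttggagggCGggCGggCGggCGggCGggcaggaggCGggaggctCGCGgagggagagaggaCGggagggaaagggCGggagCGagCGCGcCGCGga
These stretches hold 14 CpG in Hoxb4, 28 in Hoxa5 and 31 in Hoxd13, but only 3 in Hoxd4, which is not CpG-dense.

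Start site windows of 300 bases (250 before the start and 50 after it) were matched by symbol for 22 of the 39 members, with 24 windows in all. The median was 14.5 CpG per Hox window (range 4 to 45) against 7 per window over all 32851 windows of the genome. At least 10 CpG were held by 70.8% of the Hox windows against 43.5% of all windows. The Hoxd4 window held 4, at the low end of the Hox range and under the genome median. The median GC content was 57.7% against 52.7%, and the median ratio of observed to expected CpG was 0.626 against 0.384. Among letters searched on both strands, the retinoic acid receptor half-site AGGTCA was present in 29.2% of the Hox windows and 16.3% of all windows. The Cdx motif TTTATG was present in 20.8% against 11.9%, and TATAAA in 16.7% against 13.6%. A match is a description of the letters and not evidence of a bound factor.

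**Figure D1:**
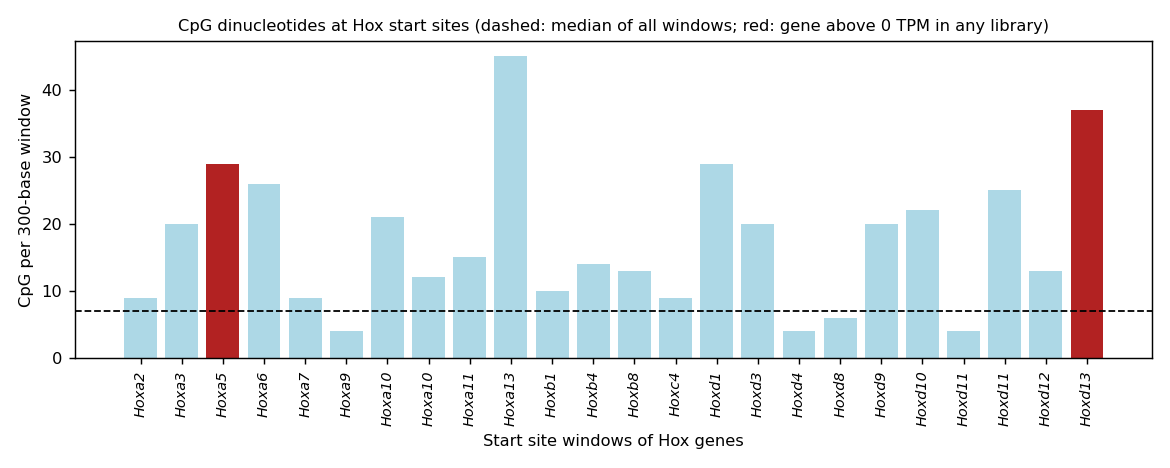
CpG dinucleotides (count per 300-base window, vertical axis) at the 24 start site windows of 22 Hox genes, ordered by cluster and paralogue number. The dashed line is the median of all windows (7), red bars are genes above 0 TPM in any library (Hoxa5 and Hoxd13) and blue bars are genes at 0 in every library, and the Hox windows range from 4 to 45 CpG.

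Of the 39 Hox genes, 33 (84.6%) were listed at 0 TPM in every library. The other 6 included Hoxa5, Hoxb9, Hoxc8, Hoxc13 and Hoxd13, and none of the 6 reached 0.2 TPM in any library. Of the 195 values (39 genes in 5 libraries), 187 (95.9%) were 0 and 8 were between 0.0252 and 0.186 TPM. A total of 37 genes (94.9%) stayed under 0.1 TPM in every library, against 55.1% of all genes and 32.4% of protein coding genes. A mean of at least 1 TPM was reached by 0 of 39. For comparison, 48.8% of all 46078 genes and 26.4% of 21519 protein coding genes were at 0 in every library, and 55.6% of protein coding genes had a mean of at least 1 TPM. Other homeobox gene families, listed after the Hox values had been seen, lay between Hox and protein coding genes. Of their 108 genes, 36 (33.3%) were at 0 in every library and 33 had a mean of at least 1 TPM. The share at 0 ranged from 2 of 17 TALE genes to 14 of 23 paired-like genes. Under 0.1 TPM in every library were 49 of the 108 genes, from 2 of 17 TALE genes to 10 of 12 LIM homeobox genes. The LIM family thus came near the Hox share on that limit, with 1 of 12 at a mean of at least 1 TPM.

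In the HoxA cluster (chromosome 6, 52155590 to 52260880, 105 kb on GRCm38), 9 of 11 genes were listed at 0 in every library. They included Hoxa4, Hoxa9 and Hoxa10, genes of the hindbrain border, the thoracic cord and the lumbar cord. Hoxa5, a gene of the cervical cord, lung and motor neurons of the diaphragm (minus strand, 52201754 to 52204587), was at 0.162 TPM in 1 h replicate 1 and at 0 in the other libraries. It lies within the span that the tables give Hoxa3 (52169062 to 52213336) on the same strand, and Hoxa3 was at 0 in that library.

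In the HoxB cluster (chromosome 11, 96194316 to 96368256, 174 kb), 9 of 10 genes were at 0 in every library. They were Hoxb1 to Hoxb8 and Hoxb13, a series that runs from a hindbrain gene to a gene of the tail. Hoxb9, a thoracic gene (plus strand, 96271457 to 96276595), was at 0.0398 TPM in 1 h replicate 1 and at 0 in the other libraries.

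In the HoxC cluster (chromosome 15, 102921103 to 103036852, 116 kb), 7 of 9 genes were at 0 in every library. They were Hoxc4, Hoxc5, Hoxc6, Hoxc9, Hoxc10, Hoxc11 and Hoxc12, among which Hoxc6, Hoxc9 and Hoxc10 are known to set forelimb, thoracic and hindlimb motor neuron identity. Hoxc8, a gene of the brachial cord (plus strand, 102990607 to 102994111), was at 0.0252 TPM in 1 h replicate 2 only. Hoxc13, known for its part in hair and nails (plus strand, 102921103 to 102928814), was at 0.0342 TPM in 8 h replicate 13 only.

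In the HoxD cluster (chromosome 2, 74668310 to 74765142, 96.8 kb), 8 of 9 genes were at 0 in every library. They were Hoxd1, Hoxd3, Hoxd4 and Hoxd8 to Hoxd12, a run that in the embryo extends to the genes of the developing limb. Hoxd13, the digit and genital gene at the tail end of the cluster (plus strand, 74668310 to 74671599), was at 0.0342 TPM in 1 h replicate 2 only.

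All members of paralogue group 4, Hoxa4, Hoxb4, Hoxc4 and Hoxd4, were at 0 in every library. By library, the summed TPM of all 39 genes was 0.293 and 0.0594 in 1 h replicates 1 and 2 and 0.146, 0 and 0.186 in 8 h replicates 13, 14 and 15. In 8 h replicate 14 not one Hox gene was above 0. The mean was 0.176 ± 0.165 TPM (SD, n = 2) at 1 h and 0.110 ± 0.0978 TPM (n = 3) at 8 h, and the difference was smaller than either spread. Without 1 h replicate 1 its direction turns, since the remaining 1 h library (0.0594 TPM) lies below the 8 h mean. The exact two-sided permutation test gave p = 0.6, and with 2 against 3 libraries it cannot fall below 0.2. The mean was 0.117 TPM over the 3 libraries of series 1 and 0.166 TPM over the 2 of series 2.

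**Figure D2:**
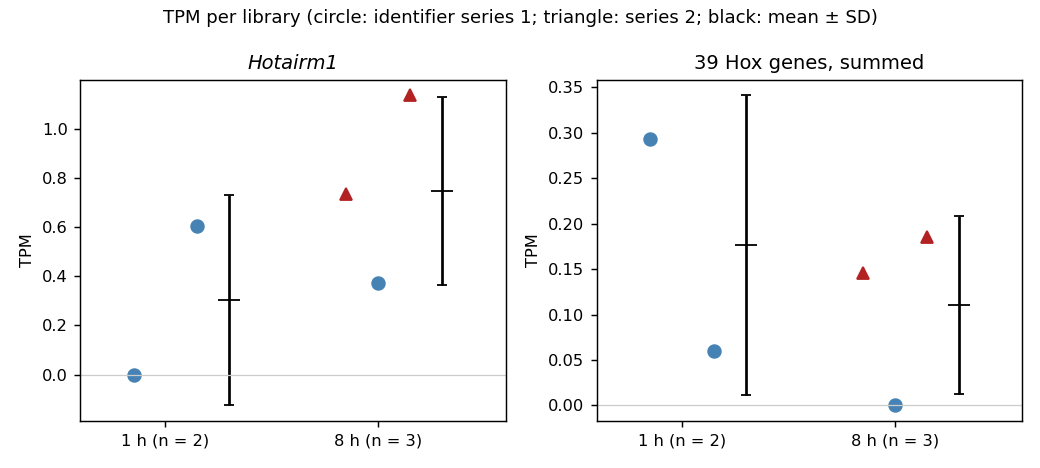
TPM per library (vertical axes) of the antisense gene Hotairm1 and of the 39 Hox genes summed, at 1 h (n = 2) and 8 h (n = 3) after PBS. Circles are libraries of identifier series 1, triangles those of series 2, and black marks show the mean ± SD. The time points overlap in both panels, and the circle at 8 h, which is replicate 14, is at 0 for the Hox sum.

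How few reads stand behind these values was estimated from the coverage column. The product of coverage and annotated exon length gave 750 aligned bases for Hoxa5, 252 for Hoxb9, 165 for Hoxc8, 252 for Hoxc13 and 250 for Hoxd13. In the 1 h libraries, 1 read count of the deposited count table corresponded to a median of 236 aligned bases. On that scale Hoxa5 amounts to 3.18 counts and each of the other 4 genes to between 0.699 and 1.07 counts, and no Hox value to more than 4.22 counts. All Hox signal in 5 libraries together came to 16.6 counts. A count of 0 allows up to 3 counts, which for a Hox gene of median exon length (2472 bases) corresponds to between 0.0906 and 0.120 TPM depending on the library, and to between 0.0372 and 0.340 TPM over the shortest and longest genes. Of the 8 values above 0, 5 came to fewer counts than the 3 that a listed 0 allows, and these limits cover counting error only. In bulk RNA, a level this low cannot be divided into fewer cells with the RNA and less RNA per cell.

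The zeros were also read against the count table. It lists 7599 genes and covers only part of the genome, and 25 of the 39 Hox genes have identifiers within its range. None of them is listed (0 of 39). Of 7941 genes in that range with a mean of at least 1 TPM, 7463 (94.0%) are listed, and of 1484 genes in that range at 0 TPM in every library, 0 are. Genes with 3 or more counts in a 1 h column were never listed at 0 TPM in the table of that library, whereas 1 of 6 and 3 of 5 genes with 1 or 2 counts were. The absence of the Hox genes from the count table thus goes with their low TPM, and the table gives no separate measurement of them.

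Within the clusters, the tables hold 47 genes that are not Hox genes, most of them antisense or other noncoding RNAs. A total of 38 were at 0 in every library and 1 had a mean of at least 1 TPM. The HoxC cluster had 0 of 7 above 0, including Hotair, a long noncoding RNA of that cluster. The antisense genes Hoxa11os, Hoxb5os, Hoxb3os and Hoxd3os1 were also at 0. The gene with the mean above 1 TPM was Gm11539 in the long gap of the HoxB cluster (96248633 to 96249189), a processed pseudogene, at 1.59 and 3.07 TPM at 1 h and 3.23, 2.95 and 3.16 TPM at 8 h. Reads of a processed pseudogene may come from its parent gene, so its level is uncertain.

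The noncoding signal of the HoxA cluster lay at its forward end. Hotairm1, a long noncoding RNA on the plus strand (52156902 to 52162119), was at 0 TPM in replicate 1 and 0.605 TPM in replicate 2 of the 1 h group. At 8 h it was at 0.735, 0.371 and 1.14 TPM in replicates 13, 14 and 15. These values correspond to 0, 1.91, 5.78, 2.96 and 6.59 counts. The 2 scales did not rank the libraries alike: 0.605 TPM in 1 h replicate 2 came to 1.91 counts, and 0.371 TPM in 8 h replicate 14 to 2.96 counts. The counts given for these noncoding genes are therefore rough. The mean was 0.302 ± 0.428 TPM (n = 2) at 1 h and 0.747 ± 0.383 TPM (n = 3) at 8 h, and the exact two-sided permutation test gave p = 0.4. The ranges of the time points overlapped. Whether strand was used to make the TPM tables is not stated in the methods or labels used here, so reads of antisense genes cannot be assigned with certainty.

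Of the short annotated RNAs at this end, Gm27868, Gm27867 and Gm27861 lie within the span of Hotairm1 on the same strand. Their reads may therefore be those of Hotairm1. Gm27868 was above 0 in all 5 libraries (0.0359 to 0.331 TPM), but on only 0.0381 to 0.421 counts per library. Gm27477 was at 2.76 TPM in 8 h replicate 13 and at 0.0737 TPM or less in the others, a value that rests on 5.00 counts over 143 bases. Gm27867 reached 0.157 TPM and Gm27861 0.740 TPM, both in 8 h replicate 15. Further inside the cluster, Gm15050 was at 0.144 TPM or less and Hoxaas2 at 0.0164 TPM in 1 h replicate 2 only. In the HoxD cluster, Haglr, a long noncoding RNA near Hoxd1, was at 0.230 TPM in 1 h replicate 1 only, with 1.31 counts on the same rough scale.

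Some microRNAs encoded in the clusters share a seed across clusters. Only their 5p arms do so, and these are shown here because related microRNAs lie in different clusters. The 3p arms and both arms of miR-615 in HoxC do not share these seeds. The mature 5p sequences from RefSeq are printed with the seed (bases 2 to 8) in capitals.
mmu-miR-10a-5p (HoxB): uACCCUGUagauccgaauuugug
mmu-miR-10b-5p (HoxD): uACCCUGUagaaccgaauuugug
mmu-miR-196a-5p (HoxB and HoxC): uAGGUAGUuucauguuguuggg
mmu-miR-196b-5p (HoxA): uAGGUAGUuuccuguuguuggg
The first pair shares the seed ACCCUGU and the second pair the seed AGGUAGU. The genes Mir10a, Mir10b, Mir196a-1, Mir196a-2, Mir196b and Mir615 were at 0 TPM in every library. Poly-A selected libraries do not capture mature microRNAs. The entries of these genes span only short stretches (96317165 to 96317274 for Mir10a), so the zeros say little about longer transcripts either.

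Some genes outside the clusters were expressed. Within 300 kb outside the clusters lie 57 genes, of which 15 had a mean of at least 1 TPM. Of the 20 protein coding genes there, 12 did, at 12.2 to 1290 TPM. Over the whole genome, 30.1% of all genes and 55.6% of protein coding genes reached that mean. The flanks thus lay near the genome shares. Of the 47 other genes inside the clusters, only 3 are protein coding, so the shares inside and outside compare unlike gene types. These expressed coding genes lay on both sides of HoxC and HoxD and on the side of lower coordinates only for HoxA and HoxB. Only genes whose whole body lies within 300 kb were counted. On the side of higher coordinates these included no coding gene beside HoxB and only Evx1 beside HoxA, so the sides cannot be compared there. Beside HoxA, the adaptor protein gene Skap2, 143 kb from the cluster, was at 47.1 ± 10.8 TPM (n = 5). Beside HoxB, the mitochondrial ATP synthase subunit gene Atp5g1, 119 kb away, was at 221 ± 34.0 TPM, the ESCRT subunit gene Snf8 at 78.6 ± 3.72 TPM and the ubiquitin-conjugating enzyme gene Ube2z at 61.3 ± 7.22 TPM. Beside HoxC, the nearest expressed coding genes were Smug1, a uracil-DNA glycosylase gene, 116 kb away at 12.2 ± 1.42 TPM, and Calcoco1, 199 kb away on the other side at 41.9 ± 3.86 TPM. Cbx5, which encodes the heterochromatin protein HP1 alpha, stood at 189 ± 11.1 TPM, Copz1 at 235 ± 8.83 TPM, Atp5g2 at 470 ± 34.0 TPM and the splicing factor gene Hnrnpa1 at 1290 ± 143 TPM. Beside HoxD, Mtx2, a mitochondrial import gene, 60.7 kb away, was at 39.8 ± 3.49 TPM and Lnp, 88.9 kb away on the other side, at 16.9 ± 3.61 TPM. The pseudogenes Gm8129 (35.3 ± 5.94 TPM), Rpl39-ps (52.6 ± 2.71 TPM) and Mrpl23-ps1 (11.1 ± 1.24 TPM) also passed 1 TPM, and their reads may belong to their parent genes. The homeobox genes that adjoin the tail ends of HoxA and HoxD, Evx1 (52.6 kb away) and Evx2 (8.75 kb away), were at 0 in every library, as was the noncoding gene Hottip (1.90 kb from HoxA). These 3 were singled out after their values had been seen.

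**Figure D3:**
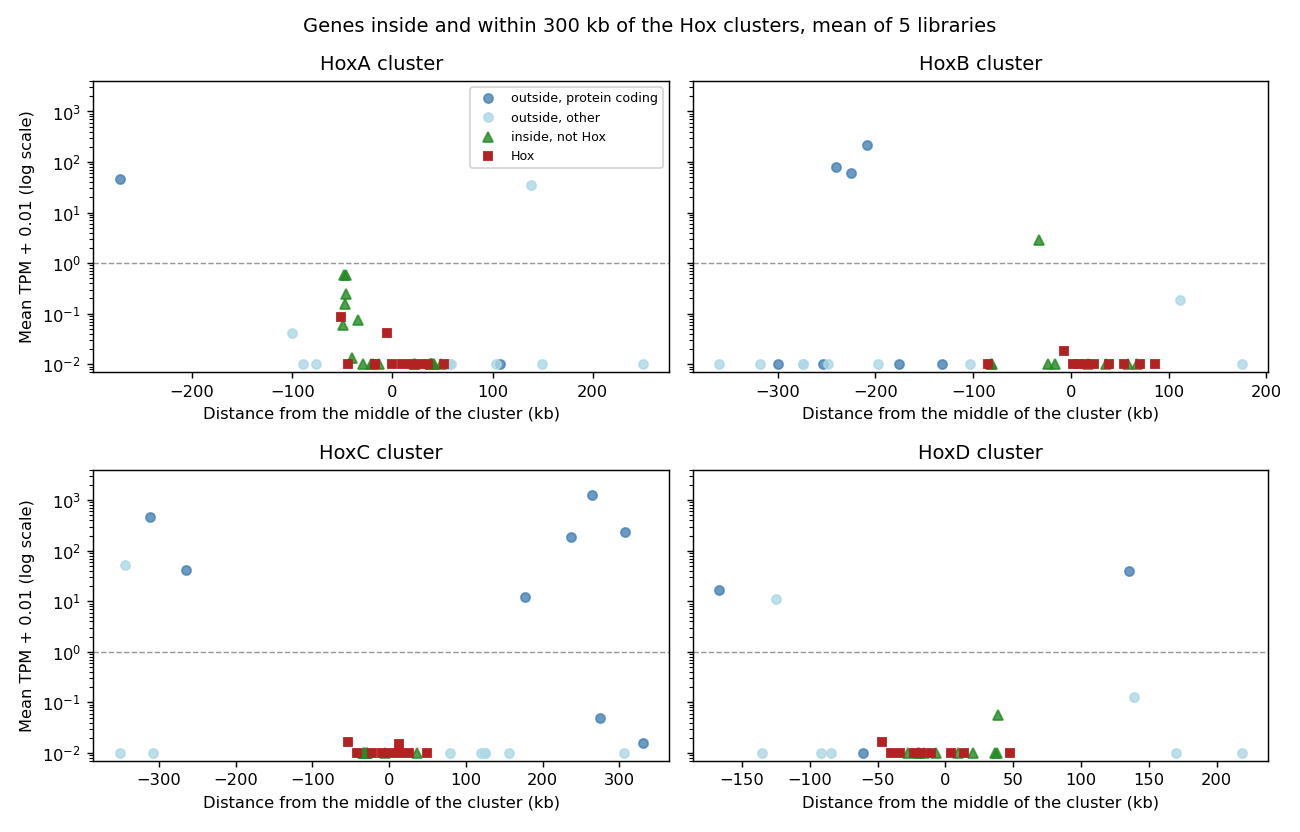
Mean TPM over 5 libraries plus 0.01 (log scale, vertical axis) against the distance from the middle of each cluster in kb, for Hox genes (red squares), other genes inside the cluster (green triangles) and genes within 300 kb outside it (blue circles, dark for protein coding). The dashed line marks 1 TPM. Every Hox gene lies under it. Above it lie 1 of 47 other genes inside (Gm11539) and 15 of 57 genes outside. Of the coding genes, 0 of 3 inside and 12 of 20 outside lie above it. Over the whole genome, 30.1% of all genes and 55.6% of protein coding genes had a mean of at least 1 TPM.

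The Hox cofactor genes were expressed in the same libraries. All 9 TALE genes of the list had a mean of at least 1 TPM, from 10.3 to 117 TPM. Meis2, which is also known in olfactory bulb neurogenesis from the SVZ, was highest at 117 ± 9.76 TPM (n = 5), with 126 and 121 TPM at 1 h and 107, 106 and 125 TPM at 8 h. Pknox2 followed at 39.6 ± 10.4 TPM, Meis3 at 26.1 ± 2.08 TPM, Pbx2 at 23.5 ± 6.46 TPM and Pknox1 at 23.1 ± 4.72 TPM.

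Genes of the chromatin systems that act on Hox clusters were all expressed. For Polycomb repressive complex 2, which methylates histone H3 lysine 27, 11 of 11 genes had a mean of at least 1 TPM (4.81 to 221 TPM). The histone-binding subunit genes Rbbp4 and Rbbp7 were at 221 ± 11.5 and 191 ± 39.3 TPM (n = 5), the methyltransferase gene Ezh2 at 77.1 ± 18.8 TPM, Eed at 47.3 ± 7.57 TPM, Aebp2 at 41.1 ± 17.8 TPM and Suz12 at 34.4 ± 13.5 TPM. For Polycomb repressive complex 1, which ubiquitinates histone H2A and compacts chromatin, 19 of 19 genes passed (3.24 to 159 TPM), with Phc2 at 159 ± 36.0 TPM, Bmi1 at 104 ± 8.89 TPM and the ubiquitin ligase gene Rnf2 at 60.1 ± 8.98 TPM. The opposing trithorax and H3K27 demethylase genes passed in 10 of 10 cases, with Ash2l at 80.1 ± 11.5 TPM, Dpy30 at 74.0 ± 9.59 TPM, Wdr5 at 60.2 ± 10.5 TPM, Men1 at 56.4 ± 14.7 TPM and the demethylase gene Kdm6b at 28.0 ± 5.93 TPM. TPM measures RNA only, and neither the proteins nor histone marks on the clusters were measured in these libraries.

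Of 16 genes that induce Hox genes or mark hindbrain segments, 7 had a mean of at least 1 TPM. They were mostly retinoid receptor genes. Rarb, a retinoic acid receptor gene that retinoic acid itself induces, was highest, with 38.1 and 39.6 TPM in the 1 h libraries. At 8 h it had 68.9, 38.2 and 70.9 TPM in replicates 13, 14 and 15. The high values were those of the 2 libraries of series 2, and the remaining 8 h library lay with the 1 h libraries. Rxrb was at 28.5 ± 3.68 TPM, Rxra at 23.2 ± 4.84 TPM, Rara at 5.91 ± 0.894 TPM and Rarg at 5.11 ± 1.24 TPM (n = 5). The caudal genes Cdx1, Cdx2 and Cdx4, which open the clusters in the embryonic tail, were at 0 in every library, and Aldh1a2, which makes retinoic acid, had a mean of 0.018 TPM. Of 8 ParaHox and dispersed Hox-like genes, 1 had a mean of at least 1 TPM and 5 were at 0 in every library. Gsx1, a ParaHox gene of the ventral forebrain, was at 13.1 and 22.2 TPM at 1 h and 39.2, 22.8 and 43.5 TPM at 8 h, and its high values were again those of series 2. The lowest 8 h value, that of replicate 14, lay just above the higher 1 h value, and the log2 difference of 0.95 ± 0.33 (SE) had an adjusted p of 0.38 in limma. The 5 genes at 0 were Evx1, Evx2, Pdx1, Mnx1 and Meox2.

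**Figure D4:**
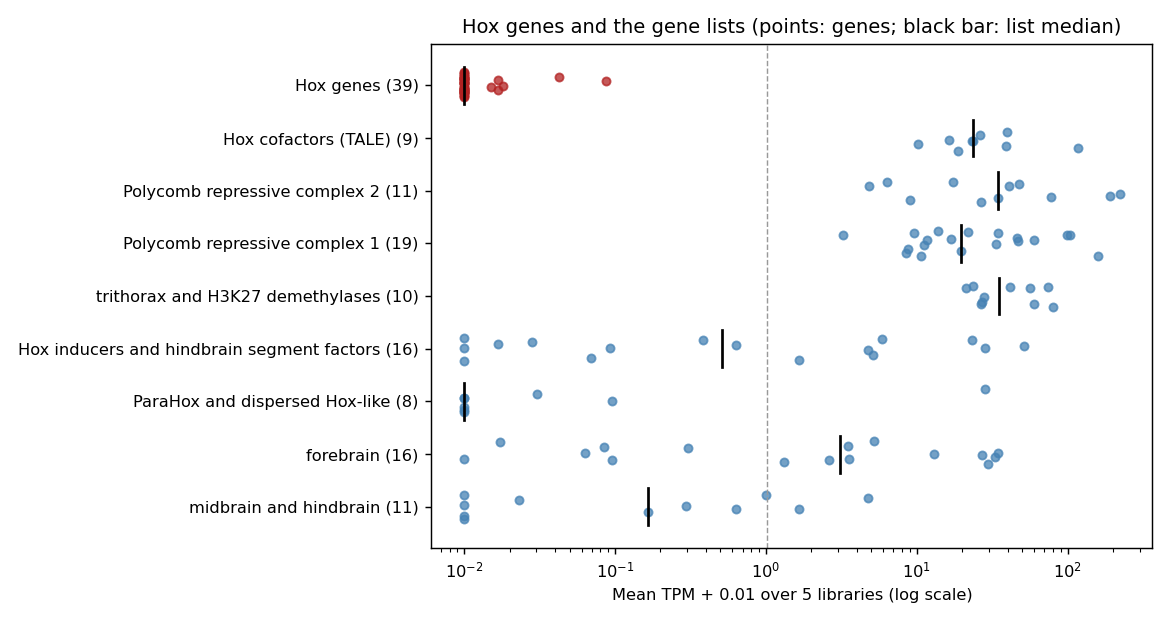
Mean TPM over 5 libraries plus 0.01 (log scale, horizontal axis) of each gene, for the 39 Hox genes (red) and for 8 gene lists (blue), with the number of genes in parentheses. Black bars are list medians and the dashed line marks 1 TPM. The Hox genes all lie under 0.1 TPM on average, and every gene of the cofactor, Polycomb and trithorax lists lies above 1 TPM.

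The comparison of 8 h with 1 h asked whether any of these genes moved with time after PBS. Limma on log2(TPM + 1), with Benjamini-Hochberg adjustment over the 13870 genes with a mean of at least 1 TPM, called 6 genes (2 higher and 4 lower at 8 h, 0.0433% of those tested) past both thresholds, an adjusted p no higher than 0.05 and a change of more than 1 log2 unit. No Hox gene entered this test (0 of 39). Without the filter on low values, 0 of 46078 genes were called (0%), 2447 had an unadjusted p under 0.05, and 0 Hox genes were among these. At 0 to 4 counts per library a change of Hox genes was not detectable at this depth.

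In the cofactor, Polycomb, trithorax and inducer lists, 0 genes were called in either direction, with or without the identifier series as a term. The smallest adjusted p was 0.0914, for Aebp2, an accessory subunit gene of Polycomb repressive complex 2. Its level was 22.0 TPM in both 1 h libraries, and 57.9, 47.5 and 56.0 TPM in replicates 13, 14 and 15 at 8 h, a log2 difference of 1.25 ± 0.12 (SE), without overlap and with 8 h replicate 14 on the side of the other 8 h libraries. The 8 h values lay above all 1 h values for 4 of 11 genes of complex 2 and 8 of 19 of complex 1. They did so for 3 of 10 trithorax genes and 2 of 9 TALE genes. The share over all tested genes was 23.7%. In either direction, 4 of 11, 8 of 19, 3 of 10 and 4 of 9 genes of these lists did not overlap. That share was 33.1% over all tested genes. The median log2 difference was 0.26 for complex 2 and 0.22 for complex 1, against 0.10 over all tested genes. The summed level of complex 2 was 645 and 558 TPM at 1 h, and at 8 h it was 767, 636 and 775 TPM in replicates 13, 14 and 15, so that its highest values were those of the series 2 libraries. The part of the identifier series and of sex in this difference was not tested, and the 2 libraries of series 2 hold only 8 h samples.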

How the data were processed

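RNA of 5 libraries was analysed from the files the authors deposited. Per the labels, reads were from stranded poly-A libraries, processed on GRCm38 (bcl2fastq 2.19.1.403 in the submitters' processing notes), and the study names the nf-core/rnaseq pipeline with STAR and featureCounts. The authors deposited, per library, TPM, FPKM and per-base coverage for 46078 genes. Which step of that pipeline wrote them is not stated. The authors also deposited a table of read counts for 7599 genes, with totals of 13988166 to 18572154. Members and lists were chosen with earlier results of these data known.

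TPM was summed per gene identifier. FPKM served as an alternative. Coverage times exon length (GENCODE vM21) was divided by read counts of the 1 h columns, over coding genes with at least 100 counts, and the same scale was used for all libraries. The 1 h columns lay within 0.1 log2 of their own tables for 34.3% and 35.1% of genes and the 8 h columns for 13.9% to 18.3%, so the 8 h columns were left out of the calibration. The number of unassigned value columns was 0. The 8 h against 1 h test was limma 3.58.1 (R 4.3.3) with an intensity trend on log2(TPM + 1), without covariates, over genes with a mean of at least 1 TPM. The script was checked on simulated tables. Single values were compared with exact permutation tests. Hox genes are named, along with other genes inside the clusters that were above 0, outside genes with a mean of at least 1 TPM, and up to 6 genes per list with the highest mean. Names beyond this rule (Nkx6-1, Pax2, Pax5, the Cdx genes, Aldh1a2, Hottip, Hotair, Evx1, Evx2, Mnx1, Meox2 and the genes at 0 inside the clusters) were chosen after their values were seen. Certain genes, 1 or more Hox genes included, are left unnamed here but enter every count, sum and median. Replicates are separate animals by the study's definition, and no label ties a library to an animal.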

Additional observations from a re-analysis of the deposited data

How the results depend on the processing

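The number of Hox genes listed at 0 in every library was 33 to 35 when each library was left out in turn, 33 from coverage and from the highest row of a gene, 37 under 0.1 TPM and 39 under 1 TPM. The number with a mean of at least 1 TPM stayed at 0, also from FPKM. The summed Hox level was 0.135 TPM with median-ratio scaling, 0.117 TPM in series 1 alone and 0.0977 to 0.171 TPM with each library left out, against 0.137 TPM. The lower sum at 8 h than at 1 h rests on 1 h replicate 1: without it the 1 h value is 0.0594 TPM, below the 8 h mean of 0.110 TPM. The number of genes called over the whole table was not stable. Against 6 genes, limma called 0 without the filter on low values, 19 with the identifier series as a term, and 0 to 573 with each library left out. It called 573 without 8 h replicate 14, when time and series coincide, 1 without 8 h replicate 13, and 0 without 1 h replicate 1, 1 h replicate 2 or 8 h replicate 15, where 767, 668 and 850 genes had an unadjusted p under 0.05. In series 1 alone, where it called 7, a single 8 h library remains and its spread is taken to equal that at 1 h. The cause was not tested beyond these fits. The count test and its alternatives were not run, because the count table lists 0 Hox genes. No paired analysis was possible because the groups share no replicate number. A Hox gene listed at 0 may still have up to 3 counts in a library.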
